A study of Mus musculus with 7 samples.

Results

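The genes described here are those that encode the histones made for DNA replication, read in conventional type 1 dendritic cells (cDC1) of the mouse lung. They were taken by name, as every probe set whose symbol in the platform annotation is of the form H1f, H2ac, H2bc, H3c or H4c followed by a number, or of the older form Hist1h to Hist4h. This gave 50 of the 25428 probe sets, each built for 1 gene, and all 50 carried symbols of the newer form. They comprise 10 linker histone (H1), 12 H2A, 13 H2B, 7 H3 and 8 H4 genes. The members were thus chosen by symbol. The family as such was selected on results of these arrays that were already known, the signals of KP(l) and nLung arrays among them, so the differences between groups are given as a description.

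Histones package DNA into nucleosomes, in which a core of H2A, H2B, H3 and H4 is wrapped by DNA and a linker histone sits where the DNA enters and leaves. In mammals most of these proteins come from many near-identical, intronless genes that lie in clusters, the largest of them on mouse chromosome 13 and another on chromosome 3. Their transcription and mRNA stability rise in S phase, when new chromatin is assembled, and their mRNAs end in a conserved stem-loop bound by SLBP in place of a poly(A) tail. Some histone genes are also transcribed into polyadenylated mRNA in cells that have stopped dividing.

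There were 3 arrays of cDC1 from tumor-bearing lungs at a late stage, named KP(l), and 4 arrays of cDC1 from control lungs, named nLung. All were sorted from C57/BL6 mice, and for each array the lungs of 2 to 3 animals had been pooled. KP is a line of mouse lung adenocarcinoma cells. KP(l) mice had received 100000 of these cells into the tail vein and were harvested on day 28, while nLung mice were healthy controls. The age of the mice is not given in the sources used here. RNA was read on Mouse Gene 2.0 ST arrays, and signals are given as log2 RMA values. The labels name amplification by a NuGEN protocol and the study's methods name the Affymetrix 3'IVT protocol. Since the sources differ, how priming treated mRNA without a poly(A) tail is not settled, and its part in the signals was not tested. All 13 measured cDC1 markers lay above the median probe set, at a median signal of 10.06. So did all 10 alveolar macrophage and all 5 plasmacytoid dendritic cell markers, at 4.32 and 5.78. Lying above it thus does not identify the cells, whose type is taken from the labels. Array medians were 3.51 to 3.57 in KP(l) and 3.49 to 3.56 in nLung. Fewer cells of a type and less RNA per cell cannot be told apart in sorted bulk samples.

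Of the 50 genes, 41 lie on chromosome 13, 5 on chromosome 3, 2 on chromosome 6 and 1 each on chromosomes 15 and 19. The 4 outside chromosomes 3 and 13 are linker histones that the name rule takes along. They are H1f8, the oocyte linker histone, H1f10, H1f7, which is made in spermatids, and the pseudogene H1f11-ps. In 20 of the 50 genes the mean signal over all arrays lay above the median probe set, at 3.54, and in 30 it did not. The brighter genes were 4 of 10 for H1, 6 of 12 for H2A, 7 of 13 for H2B, 1 of 7 for H3 and 2 of 8 for H4. Among the 30 dimmer ones were the testis histone genes H1f6, H2ac1 and H2bc1, at means of 3.23, 3.41 and 1.56. In 16 of the 50, 3 of them among the brighter ones, some arrays held exactly the same deposited value. Near-identical paralogs may share hybridization signal, and signals of different probe sets do not rank RNA amounts.

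Promoter sequences were matched by gene ID to the RefSeq table of build GRCm38.p6, from 250 bases before to 50 bases after each start. It held 46 windows for 45 of the genes, and none for H1f11-ps, H2bc21, H2bc4, H3c1 and H3c7. Both strands were searched for CCAAT, the TATA box letters TATAAA, the octamer ATTTGCAT known from H2B promoters, and AAACACA, known from H1 promoters. In 0 of the 46 windows did matches of different motifs overlap. The 6 windows that follow belong to genes whose signals the results turn on, with matches in capitals. H4c3, H2bc13, H1f4 and H1f2 varied together across arrays, H2bc15 is one of a pair of genes that start back to back, and H2ac4 had the most negative difference between the groups.
H4c3, chr13:23698409-23698708, - strand: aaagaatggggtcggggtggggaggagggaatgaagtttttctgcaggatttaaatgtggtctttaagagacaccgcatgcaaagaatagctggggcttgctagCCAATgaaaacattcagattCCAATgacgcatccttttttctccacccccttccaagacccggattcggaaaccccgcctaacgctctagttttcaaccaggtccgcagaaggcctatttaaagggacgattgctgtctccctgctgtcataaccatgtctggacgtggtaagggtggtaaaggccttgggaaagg
H2bc13, chr13:21716134-21716433, - strand: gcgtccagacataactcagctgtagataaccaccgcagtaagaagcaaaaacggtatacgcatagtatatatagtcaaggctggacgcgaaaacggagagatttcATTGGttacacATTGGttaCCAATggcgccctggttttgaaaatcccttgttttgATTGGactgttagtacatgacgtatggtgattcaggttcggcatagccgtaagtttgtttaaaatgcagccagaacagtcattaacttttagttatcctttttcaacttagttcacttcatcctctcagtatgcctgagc
H1f4, chr13:23622509-23622808, - strand: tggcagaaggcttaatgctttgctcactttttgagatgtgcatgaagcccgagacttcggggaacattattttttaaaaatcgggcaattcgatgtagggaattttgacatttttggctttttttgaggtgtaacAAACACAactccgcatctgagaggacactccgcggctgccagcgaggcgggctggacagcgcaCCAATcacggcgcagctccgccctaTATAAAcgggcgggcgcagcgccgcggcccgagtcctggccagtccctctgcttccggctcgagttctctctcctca
H1f2, chr13:23738557-23738856, + strand: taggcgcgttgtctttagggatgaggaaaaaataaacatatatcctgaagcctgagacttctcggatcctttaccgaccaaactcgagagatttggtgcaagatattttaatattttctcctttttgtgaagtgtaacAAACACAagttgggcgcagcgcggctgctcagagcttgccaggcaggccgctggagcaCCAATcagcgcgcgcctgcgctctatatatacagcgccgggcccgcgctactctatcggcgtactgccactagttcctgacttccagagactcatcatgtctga
H2bc15, chr13:21753826-21754125, + strand: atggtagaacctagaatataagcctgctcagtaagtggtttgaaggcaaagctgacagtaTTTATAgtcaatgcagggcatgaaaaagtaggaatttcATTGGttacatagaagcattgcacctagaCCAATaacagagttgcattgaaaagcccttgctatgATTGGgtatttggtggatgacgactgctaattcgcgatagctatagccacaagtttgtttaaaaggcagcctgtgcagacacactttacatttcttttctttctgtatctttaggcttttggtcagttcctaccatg
H2ac4, chr13:23750838-23751137, + strand: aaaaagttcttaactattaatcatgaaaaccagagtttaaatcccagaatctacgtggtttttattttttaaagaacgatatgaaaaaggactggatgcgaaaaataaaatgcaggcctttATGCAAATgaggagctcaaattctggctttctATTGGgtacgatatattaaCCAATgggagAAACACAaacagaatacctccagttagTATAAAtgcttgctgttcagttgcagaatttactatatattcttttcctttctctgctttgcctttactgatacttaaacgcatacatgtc
CCAAT was present in 82.6% of the histone windows and in 37.4% of all 32851 promoter windows. All 12 H2A, all 12 H2B and all 5 H3 windows held it, against 2 of 8 H4 windows, of which the one printed, H4c3, has 2 copies. TATAAA was found in 60.9% of histone windows and 13.6% of all windows. It is absent in this form from those of H4c3, H2bc13 and H1f2 and present in those of H1f4, H2bc15 and H2ac4. ATTTGCAT was found in 6 of 12 H2A and 6 of 12 H2B windows, in 0 of the 22 H1, H3 and H4 windows, and in 1.74% of all windows. The copy in the H2ac4 window reads on the reverse strand. AAACACA was found in 5 of 9 H1 windows, among them those of H1f4 and H1f2, in 2 of 12 H2A windows, that of H2ac4 included, in 2 of 12 H2B windows, and in 7.18% of all windows. Windows of genes that start back to back share bases, so the same copy of a motif can count for both genes. These are matches of letters, and no binding was measured.

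The first question was whether histone mRNA differed between KP(l) and nLung cDC1. Over the 50 genes 25 had a positive and 25 a negative difference, with a median log2 fold change of -0.03, beside 0.02 over all probe sets. Of the 20 above the median probe set 7 had a positive and 13 a negative difference, with a median of -0.33, beside 0.00 over all probe sets above it. Medians by class were 0.01 for H1, -0.43 for H2A, -0.11 for H2B, 0.05 for H3 and 0.18 for H4. Within H2A 3 genes lay above 0 and 9 below. By limma, with the adjusted p at most 0.05 and a change of 2-fold or more, 0 of the 50 genes were called. Among all probe sets the share was 0%. SAM, written anew here, also called 0, and the lowest false discovery rate it reached was 15.2%. The study, by contrast, reports differentially expressed transcripts from its own SAM run on these arrays. Why the SAM runs differ was not tested. At an unadjusted p under 0.05 in limma 1 member was higher, H2bc4, where the share of all probe sets was 2.62%, and 1 was lower, H4c12, where it was 2.24%, or 4% of members beside 4.86% in either direction. This count of 2 members was 7 without KP(l) replicate 3, 5 without nLung replicate 1, 4 without nLung replicate 2, and 1 without KP(l) replicate 1, nLung replicate 3 or nLung replicate 4. The share of all probe sets was not counted in these smaller fits, so their counts do not set the members apart.

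Differences of 2-fold or more were frequent in the family although they were seldom carried by every array. In KP(l), 4 members were higher by 2-fold or more, H2bc4, H4c3, H4c6 and H2ac11, or 8% beside 0.979% of all probe sets. Another 4 were lower by as much, H2ac4, H2bc15, H2ac6 and H2bc18, or 8% beside 0.865%. Of the 20 members above the median probe set 2 were higher and 3 lower by 2-fold or more, where 1.57% and 1.54% of all probe sets above it were. The groups were apart with all KP(l) arrays above in 1 member, H2bc4, or 2% beside 2.12% of all probe sets, and with all KP(l) arrays below in 0 members, beside 1.72%.

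**Figure D1:**
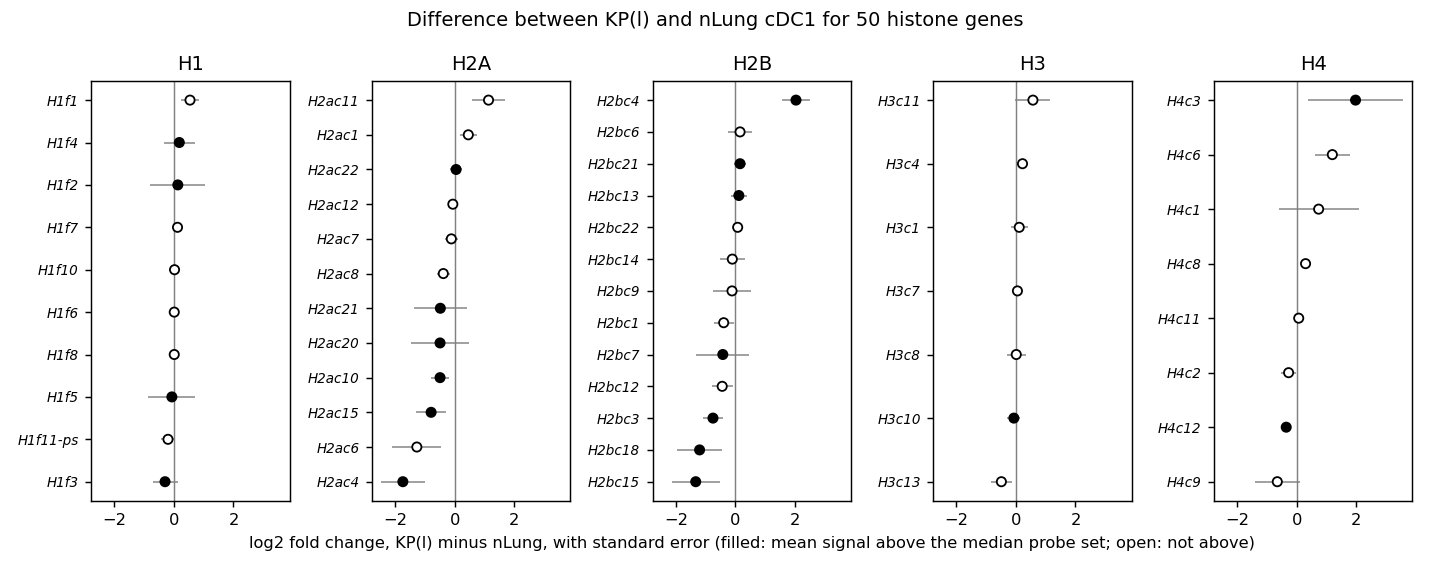
The log2 fold change of each of the 50 histone genes (x axis, KP(l) minus nLung) is drawn with its standard error from limma, in 1 panel for each histone class. Filled points are the 20 genes above the median probe set, and H2bc4 at 2.04 and H2ac4 at -1.74 are the ends of the range.

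H2bc4, which encodes a core histone H2B, was the gene with the clearest separation. Its log2 signal was 7.28, 7.94 and 8.21 in the KP(l) arrays, against 6.96, 5.35, 5.76 and 5.02 in the nLung arrays. The groups did not overlap, and the gap was narrowest between KP(l) replicate 1 and nLung replicate 1. Linear expression, 2 to the power of the signal, was 232.6 ± 71.3 in KP(l) (SD, n = 3) and 63.1 ± 42.2 in nLung (SD, n = 4). The log2 fold change was 2.04 (standard error 0.48), or 4.10-fold. Replicates 1 and 2 alone gave 1.46 and the remaining arrays 2.82, and leaving out any 1 array kept it between 1.79 and 2.43. Among dim genes past 2-fold, the log2 fold changes were 1.20 for H4c6, 1.14 for H2ac11 and -1.27 for H2ac6, with standard errors of 0.59, 0.54 and 0.82, and in all 3 the groups overlapped.

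Other H2B genes did not follow H2bc4. H2bc13, the brightest of the 50 probe sets, had a log2 signal of 10.79, 10.78 and 10.88 in KP(l), against 10.49, 10.05, 11.09 and 11.16 in nLung. The KP(l) arrays lay within the range of the nLung arrays, and the log2 fold change was 0.12 (standard error 0.28), or -0.10 without nLung replicate 2. H2bc15 had 7.07, 8.60 and 9.97 in KP(l), against 8.38, 10.14, 10.49 and 10.48 in nLung. Its KP(l) replicates 2 and 3 lay within the nLung range and KP(l) replicate 1 below it. The log2 fold change was -1.33 (standard error 0.80), from -2.04 without KP(l) replicate 3 to -0.59 without KP(l) replicate 1. H2bc18, of the chromosome 3 cluster, had 2.48, 3.55 and 4.92 in KP(l), against 4.29, 3.86, 6.43 and 4.80 in nLung. Its log2 fold change was -1.20 (standard error 0.77), from -1.83 without KP(l) replicate 3 to -0.61 without KP(l) replicate 1, and the groups overlapped. H2bc7, at 5.56, 6.47 and 7.48 in KP(l) and 8.43, 5.17, 6.07 and 8.0 in nLung, overlapped throughout. Its log2 fold change of -0.42 (standard error 0.89) turned to 0.09 without nLung replicate 1 and to 0.05 without KP(l) replicate 1. H2bc3 and H2bc21 lay at -0.75 (standard error 0.33) and 0.16 (standard error 0.20). For H2bc3 the signal was 5.01, 4.25 and 5.59 in KP(l), against 6.16, 5.55, 5.55 and 5.55 in nLung. For H2bc21 it was 4.33, 3.80 and 4.01 in KP(l), against 3.48, 4.04, 4.10 and 3.94 in nLung, and for both genes the groups overlapped. Without KP(l) replicate 2 the difference of H2bc3 was -0.40, and without nLung replicate 1 that of H2bc21 was 0.02.

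The H2A genes above the median probe set were lower in KP(l) in 5 of 6 cases, and in each the groups overlapped. H2ac4 had a log2 signal of 3.5, 4.01 and 5.70 in KP(l), against 7.10, 4.77, 6.85 and 5.85 in nLung. Only KP(l) replicate 3 lay above the lowest nLung array, and the log2 fold change was -1.74 (standard error 0.73), from -2.39 without KP(l) replicate 3 to -1.29 without KP(l) replicate 1. H2ac15 had 7.32, 6.85 and 8.35 in KP(l), against 8.35, 7.20, 8.73 and 8.91 in nLung, and a log2 fold change of -0.79 (standard error 0.51), from -1.22 without KP(l) replicate 3 to -0.47 without KP(l) replicate 2. H2ac10 had 7.23, 7.28 and 7.65 in KP(l), against 7.34, 8.58, 7.71 and 7.87 in nLung, and lay at -0.49 (standard error 0.29), or -0.26 without nLung replicate 2. H2ac22 was the even one, with 8.36, 8.05 and 8.07 in KP(l), against 8.17, 7.92, 8.58 and 7.78 in nLung. Its log2 fold change of 0.05 (standard error 0.21) turned to -0.06, -0.02 and -0.05 without nLung replicate 4, nLung replicate 2 and KP(l) replicate 1. On chromosome 3, H2ac20 and H2ac21 lay at -0.49 and -0.48, with standard errors of 0.97 and 0.89.

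H4c3, an H4 gene of the chromosome 13 cluster, spanned the widest range of the named genes. Its log2 signal was 7.95, 8.09 and 8.59 in KP(l), against 4.77, 2.54, 8.51 and 9.10 in nLung. The nLung arrays were thus divided, with replicates 1 and 2 far below every other array and replicate 4 above all. The log2 fold change of 1.98 (standard error 1.61) came to 4.36 within replicates 1 and 2 and to -0.21 within the remaining arrays. It was 0.75 without nLung replicate 2, 1.02 with array weights and 0.35 as the log2 ratio of linear means, which were 301.5 ± 74.4 in KP(l) (SD, n = 3) and 236.7 ± 265.3 in nLung (SD, n = 4). H4c12 was steadier, at 6.40, 6.76 and 6.57 in KP(l), against 6.66, 7.14, 7.01 and 6.91 in nLung, with 1 KP(l) array inside the nLung range. Its log2 fold change was -0.35 (standard error 0.14), or -0.32 and -0.39 in the same array sets. Among the dim H4 genes, H4c1 stood at 7.18 in KP(l) replicate 3 and between 1.86 and 4.63 in all other arrays.

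None of the 10 linker histone genes was called, and their log2 fold changes ran from -0.30 to 0.54, the highest being that of the dim H1f1 (standard error 0.31). H1f5 had a log2 signal of 7.32, 6.79 and 8.56 in KP(l), against 5.61, 8.40, 8.15 and 8.34 in nLung, where replicate 1 stood apart from the rest. Its log2 fold change of -0.07 (standard error 0.79) was -0.74 without nLung replicate 1, and above 0 without any 1 of nLung replicates 2 to 4 and KP(l) replicates 1 and 2, up to 0.32 without KP(l) replicate 2. H1f2 had 5.61, 5.08 and 5.93 in KP(l), against 5.42, 3.26, 5.42 and 7.56 in nLung, and H1f4 had 5.29, 5.40 and 5.79, against 4.88, 4.11, 5.94 and 6.30. For both, the KP(l) arrays lay inside a wide nLung range. Their log2 fold changes were 0.13 (standard error 0.92) and 0.18 (standard error 0.53), and without nLung replicate 2 they turned to -0.59 and -0.22. That of H1f2 was also -0.07 without KP(l) replicate 3. Of the H3 genes only H3c10 was above the median probe set, and its log2 fold change was -0.07 (standard error 0.22).

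**Figure D2:**
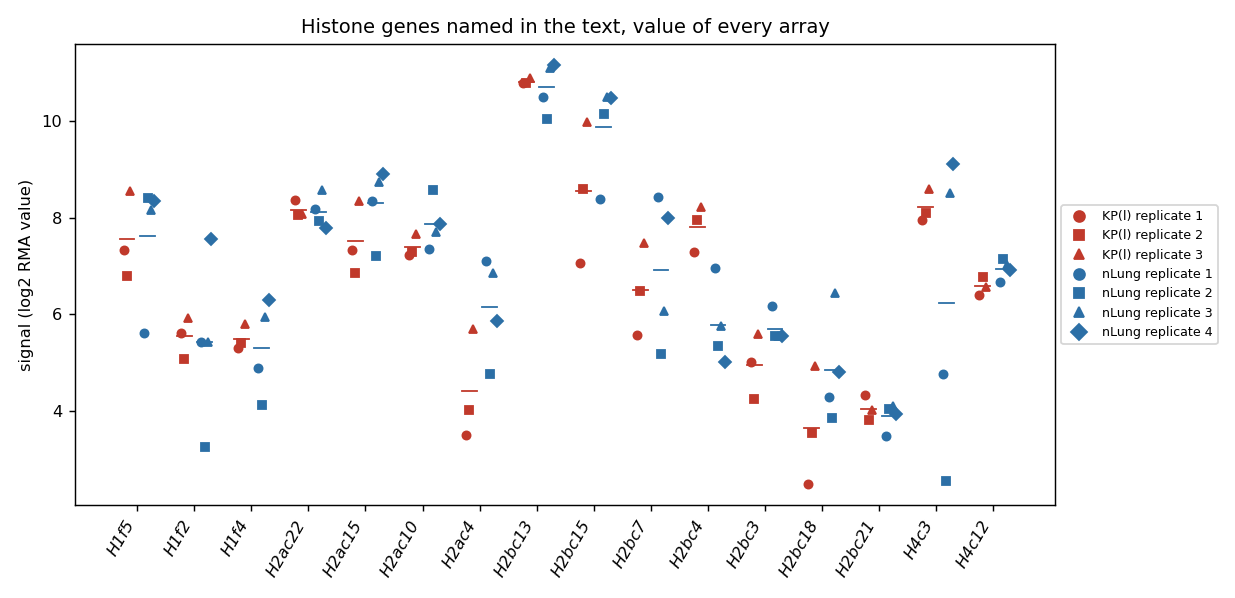
Log2 signal (y axis) of the 16 histone genes given by array, with KP(l) arrays in red and nLung arrays in blue, 1 symbol for each replicate and short lines at group means. H2bc4 is the gene whose 3 KP(l) points, from 7.28 to 8.21, all lie above its 4 nLung points, and H4c3 has nLung points from 2.54 to 9.10.

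The second question was how these genes varied among arrays of 1 group, since replicate spread decides what such a comparison can show. The 20 genes above the median probe set had a median residual SD of 0.78 on the log2 scale, beside 0.33 for all 12714 probe sets above it. For 11 of the 20 the residual SD exceeded 0.74, which is the 90th percentile of those probe sets. It was 2.43 for H4c3, a value reached by 0.0629% of them, and 1.39 for H1f2, 1.34 for H2bc7, 1.20 for H2bc15 and 1.19 for H1f5. Not all were so variable, since H4c12, H2bc21 and H2ac22 had residual SDs of 0.19, 0.28 and 0.29.

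Part of this spread ran along the replicate numbers and across the groups. An earlier analysis of these data had divided the arrays by the upper quartile of all signals, which was 5.22 in KP(l) replicate 3 and 5.25 and 5.28 in nLung replicates 3 and 4. In replicates 1 and 2 it was 5.17 and 5.17 in KP(l) and 5.12 and 5.11 in nLung. The labels do not name these sets as batches, and since signals of these arrays defined them, the differences between them are a description. Within each group the brighter histone genes were on balance higher in KP(l) replicate 3 and nLung replicates 3 and 4, called the 3 arrays from here on. With both groups weighted equally, 17 of the 20 genes above the median probe set were higher there, at a median log2 difference of 0.77, beside 6838 of 12714 and 0.03 for all probe sets above the median. Over all 50 members it was 32 genes and a median of 0.08, beside -0.05 over all probe sets. The 3 arrays lay above all 4 of replicates 1 and 2 in 5 members, or 10% beside 2.41% of all probe sets, and in 4 of the 20 brighter ones beside 4.33% of all probe sets above the median. The 5 were H4c3, H2bc13, H2bc18, H1f4 and H4c1, with log2 differences of 2.86, 0.47, 1.72, 1.03 and 3.26. They lay below in 1 member, the dim H2ac12, beside 4.37% of all probe sets. H2bc15, H4c9, H1f5, H1f2, H2ac21, H2ac4 and H2ac15 were also over 2-fold higher in the 3 arrays, at 1.68, 1.59, 1.37, 1.37, 1.21, 1.18 and 1.16, with sets that overlapped. In all, 11 of the 50 members were higher by 2-fold or more, or 22% beside 1.32% of all probe sets, and 0 were lower by as much, beside 0.735%. H2bc4, at -0.08, had no such difference.

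**Figure D3:**
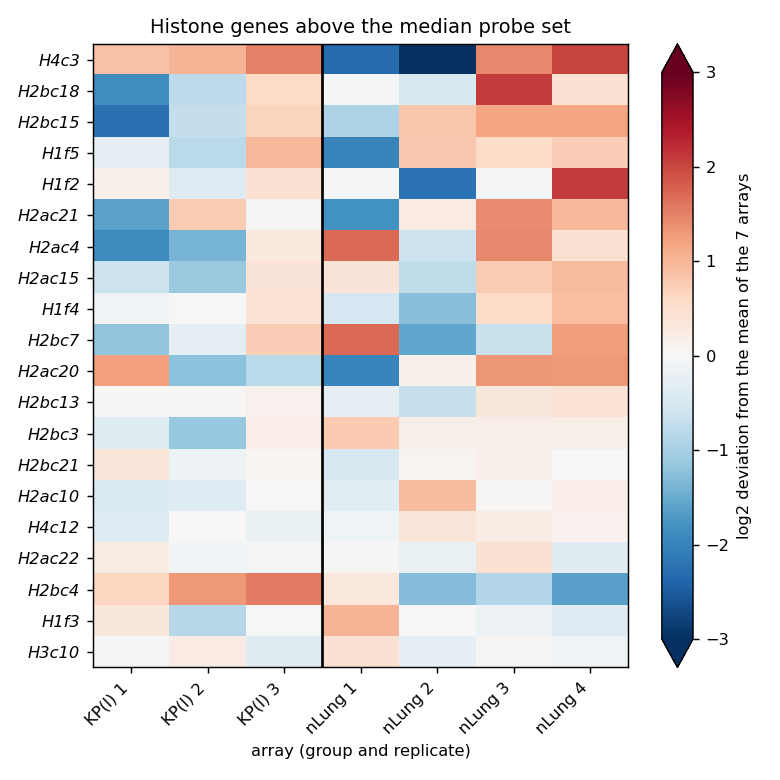
Each row is 1 of the 20 histone genes above the median probe set and each column 1 array, KP(l) left of the line and nLung right of it, and color gives the log2 deviation from the gene's mean over the 7 arrays. Rows are ordered by the difference between array sets, from H4c3 at 2.86 to H3c10 at -0.34, and KP(l) 3, nLung 3 and nLung 4 are mostly red in the upper rows.

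Some genes went up and down together. H4c3 had a Pearson's r over the 7 arrays of 0.96 with H2bc13, 0.94 with H1f4 and 0.79 with H1f2, and H2bc13 and H1f4 had an r of 0.99. In these 4 genes nLung replicate 2 was lowest and nLung replicate 4 highest. Of the 19 other genes above the median probe set, these 3, or 15.8%, had an r of 0.75 or more with H4c3, beside 4.88% of all probe sets above the median. A different pattern joined H2ac4 with H2ac15, H2bc18 and H2bc3, at an r of 0.83, 0.81 and 0.79. Over all 190 pairs the median r was 0.16, from -0.94 for H1f5 with H3c10 to 0.99, beside a median of 0.00 over all pairs of probe sets above the median. The arrays are few and share their array set, so these values only describe them. The promoters of H4c3, H2bc13, H1f4 and H1f2 printed above share CCAAT and no other of the motifs searched. CCAAT was in 82.6% of all histone windows, so it does not set these genes apart. The windows of H2bc15 and H2ac4, at an r of 0.04 and -0.03 with H4c3, hold it too.

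Among members with a promoter window, 5 pairs of an H2A and an H2B gene start back to back within 500 bases, all on chromosome 13. They are H2ac15 with H2bc15, H2ac22 with H2bc22, H2ac12 with H2bc12, H2ac7 with H2bc7, and H2ac1 with H2bc1, whose starts lie 164, 240, 178, 174 and 281 bases apart. Of these 5 the first has both genes above the median probe set. There the log2 fold changes were -0.79 for H2ac15 and -1.33 for H2bc15, and r between the genes was 0.55. The other 4 pairs had an r of 0.32, -0.10, 0.56 and -0.36 in the same order. Pairs with H2bc4 or H2bc21, which had no window, were not examined for back-to-back starts. Among the 4 chromosome 3 genes above the median probe set, r ran from -0.13 for H2bc18 with H2bc21 to 0.80 for H2ac20 with H2bc21.

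Genes that accompany histone synthesis were counted in the same fit. Of 31 S phase genes 15 were higher and 16 lower in KP(l), with a median log2 fold change of -0.02. In each direction 1 gene reached an unadjusted p under 0.05 in limma, where 2.62% and 2.24% of all probe sets did. These were Rfc4, a subunit of the clamp loader, at 0.93 (standard error 0.35), and Mcm6, of the replicative helicase, at -0.64 (standard error 0.20). Pcna, the sliding clamp, had a log2 signal of 10.21, 10.28 and 10.27 in KP(l), against 9.95, 9.85, 10.38 and 10.56 in nLung, a log2 fold change of 0.06 (standard error 0.19). Among 21 G2 and M phase genes the median was 0.06, with 11 higher and 10 lower. Mki67, the proliferation marker Ki-67, lay at -0.29 (standard error 0.18), and Ube2c, a ubiquitin-conjugating enzyme of mitosis, at 0.94 (standard error 0.35). The mitotic kinesin gene Kif20a lay at -0.32 (standard error 0.13). The 21 genes for histone mRNA transcription and processing had a median of -0.06. Slbp, whose product binds the stem-loop, had 7.24, 6.72 and 6.89 in KP(l), against 7.48, 7.48, 6.99 and 7.49 in nLung. Its log2 fold change was -0.41 (standard error 0.18), and 1 KP(l) array lay within the nLung range. Yy1, a transcription factor, was at 0.41 (standard error 0.14), with no overlap of the groups. The 19 histone chaperones had a median of -0.01, and Nap1l1, an H2A-H2B chaperone, lay at 0.00 (standard error 0.10), while Cabin1 lay at -0.44 (standard error 0.14). The 10 measured genes for histone variants and other histones that the name rule leaves out had a median of 0.04. H2ax, the variant that is phosphorylated at DNA breaks, lay at -0.48 (standard error 0.27), and Macroh2a1 at 0.02 (standard error 0.08). H2aj, a variant H2A gene, lay at 0.41 (standard error 0.16). None of these genes was called by limma over all probe sets.

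Between the array sets the medians of these lists lay below the 0.77 of the 20 brighter histone genes. Over all 50 members, dim ones included, that median was 0.08. The 3 arrays minus replicates 1 and 2 gave a median of 0.02 in S phase genes, 0.11 in G2 and M phase genes, -0.05 in the processing genes, 0.00 in chaperones and 0.08 in the 10 other histone genes. The 3 arrays lay above all of replicates 1 and 2 in 2 of 31 S phase, 1 of 21 G2 and M phase and 1 of 21 processing genes. Of all probe sets 2.41% did so, and 4.33% of those above the median. The 3 arrays lay below in 0, 2 and 3 genes of these lists, beside 4.37% and 2.67%. Chaperones had 1 of 19 in each direction. The cDC1 markers were higher in the 3 arrays in 10 of 13 cases, with a median of 0.16. Markers of other cells differed in the opposite direction, by -1.88 for 10 alveolar macrophage markers and -1.03 for 10 monocyte and monocyte-derived cell markers. The median signal of the macrophage markers was 6.01, 5.23 and 3.11 in KP(l), against 5.55, 3.42, 3.23 and 3.32 in nLung. All 10 were above the median probe set over the 7 arrays, and their summed linear expression ranged from 94.6 to 1197.6 in KP(l) and from 97.7 to 1059 in nLung. For the 10 monocyte markers it ranged from 2287.3 to 2650.7 in KP(l) and from 2199.6 to 2614.5 in nLung. Most of that sum was Ccr2, at 1588.9 to 2067.3 in KP(l) and 1963.4 to 2324.2 in nLung, so it says little of the other markers. Between the groups, 8 of 10 macrophage markers were above nLung in KP(l), at a median difference of 0.83 on the log2 scale, as were 8 of 10 monocyte markers, at a median of 0.94. In each list 4 were higher by 2-fold or more and 0 lower, and the medians were 1.07 and 1.28 within replicates 1 and 2, and -0.10 and 0.01 within the 3 arrays. Neutrophil markers were summed at 68.4 to 1590.4 in KP(l) and 62.3 to 80.8 in nLung, the high value being that of KP(l) replicate 1. Most of that value was S100a8 and S100a9, at 834.4 and 654.6, so it says little of the other markers. Of the 9 neutrophil markers 8 were not above the median probe set. The part of these cells in the histone signals was not tested. By array, the median of the macrophage markers was lowest in KP(l) replicate 3, which had the highest H2bc4 signal, while within nLung it was highest in replicate 1, as was H2bc4.

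**Figure D4:**
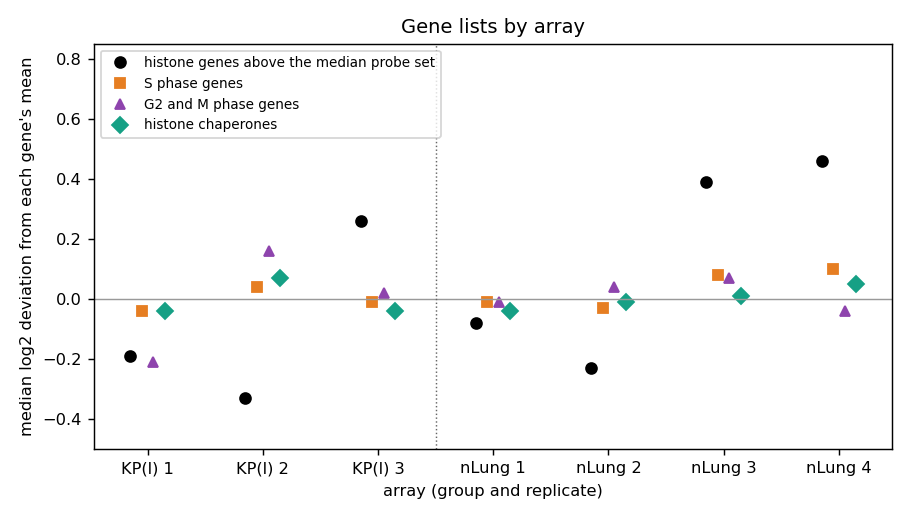
The median log2 deviation from each gene's own mean (y axis) is drawn for 4 gene lists in each array (x axis), KP(l) left of the dotted line and nLung right of it. The histone genes above the median probe set lie at 0.26, 0.39 and 0.46 in KP(l) 3, nLung 3 and nLung 4 and at or below -0.08 in the other 4 arrays, while S phase genes stay between -0.04 and 0.10.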

How the data were processed

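Signals of 25428 probe sets on 7 Mouse Gene 2.0 ST arrays were used. The deposited log2 values are RMA values (background correction, quantile normalization over arrays, median polish), which the authors obtained with affy under Bioconductor 3.5 and R 3.4.2, using BrainArray Entrez definitions 22.0.0. RMA assumes like distributions in all arrays and removes overall shifts. Probe sets were named by the platform table (24705 of 25428), and 24673 Entrez IDs were matched in RefSeq. A probe set it does not list is unnamed here. Group differences were fitted by limma 3.58.1 under R 4.3.3, with Benjamini-Hochberg adjustment over all probe sets, at the study's thresholds. SAM, the study's test, was written anew over all 35 splits of the 7 arrays. The number of arrays limits the precision, and no background level was taken off. Both tests were tried on simulated data. The residual SD is that of the limma fit. Named were the 10 brightest members, the 6 with the largest differences in each direction among members above the median probe set and, in the other lists, up to 2 of the brightest genes and up to 2 of the smallest p. Other genes were chosen after their values were seen. The members and lists were chosen with earlier results of these data known. The r limit of 0.75 and the back-to-back limit of 500 bases were set after seeing values. The genome build of the probe sets is not given in the sources used here. Alternatives were an intensity trend, array weights, further normalization, a filter on dim probe sets, blocks and leaving out each array. Python 3.11.15 and matplotlib 3.10.9 served for tables and plots.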

Additional observations from a re-analysis of the deposited data

Results flagged for a closer look

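In the nLung group of 4 arrays, 3 of the 16 histone genes given by array had 1 array farther from the rest than Dixon's 95% limit for the gap over the range allows. For H1f5 it was nLung replicate 1, at a log2 signal of 5.61, below the other arrays. For H2bc15 it was nLung replicate 1 again, at 8.38, also below the others. For H2bc3 it was nLung replicate 1, at 6.16, above 3 arrays that all measured 5.55. With those 3 values tied, the gap over the range is 1.0 however far replicate 1 lies, so the limit cannot judge this gene. For values without ties, chance alone gives such a result in about 1 group of 20. All 3 flags fell on nLung replicate 1. The share of all probe sets past the limit was not counted, so the flags do not set histone genes apart. The groups of 3 KP(l) arrays were not examined in this way.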

How the results depend on the processing

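No histone gene and no probe set was called under any alternative run, with SAM or with the adjusted p alone. The count of histone genes at an unadjusted p under 0.05, 2 in limma, was 1 with the array set as a block and 1 to 7 when 1 array was left out. The median log2 fold change of the members, -0.03, lay between -0.10 and 0.02 when 1 array was left out, and it was -0.33 over the members above the median probe set, whether or not the other probe sets were filtered. With the replicate number as a block 5 histone genes had an unadjusted p under 0.05 in limma. The share of all probe sets was not counted in the fits with a block or without 1 array. These counts thus do not set histone genes apart. The labels name no pairing of same-numbered arrays. Over all probe sets their deviations from the group means correlated at 0.08, 0.02 and 0.19. With so few arrays this cannot show whether they share more than a number. With the replicate block H1f5 lay at 0.17 and H2ac22 at -0.06, both turned in direction. H1f5 was also turned with the array set as a block, at 0.16. With array weights H1f2, H1f4, H2ac22 and H2bc13 were turned, at -0.26, -0.10, -0.04 and -0.04, and as a ratio of linear means H1f2 and H1f4 were, at -0.56 and -0.04. When 1 array was left out the log2 fold change ranged from -0.74 to 0.32 for H1f5, -0.59 to 0.84 for H1f2, -0.22 to 0.52 for H1f4, -0.06 to 0.21 for H2ac22, -0.10 to 0.27 for H2bc13 and -1.0 to 0.09 for H2bc7. The cause was not tested. H4c3, at 1.98, was 1.02 with array weights and 0.35 as a ratio of linear means. Of the 16 histone genes given by array, the others kept their direction under these alternatives, which were not run for other named genes. Within the 3 arrays other than replicates 1 and 2, H4c3, H2bc3 and H2bc21 of these others were turned too, at -0.21, 0.04 and -0.01.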
